A study of Mus musculus with 4 samples.

Results

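The cytochrome P450 genes described here are those for which the array's annotation lists a single gene symbol of the form Cyp, a family number, a subfamily letter and a gene number, apart from the bile acid enzymes Cyp7a1, Cyp7b1, Cyp8b1 and Cyp27a1. Although the set was chosen with earlier results of these data known, the rule itself used names only and no measured value. It gave 42 probe sets of 36 genes in 21 subfamilies, out of 12422 probe sets that are not array controls and 8251 genes with a probe set of their own. Total liver RNA of male mice was hybridised to Affymetrix MG_U74Av2 arrays, 2 for the wild-type group and 2 for the PEPCK-TAg group. Every mouse was a B6SJL hybrid aged 50 to 66 days and, after weaning, had free access for 4 weeks to food with 65% protein and 10% carbohydrate, so the controls carry the diet as well. PEPCK-TAg mice carry a transgene for the SV40 large T and small t proteins, named for the promoter of the phosphoenolpyruvate carboxykinase gene, which is active in hepatocytes, and wild-type mice are not transgenic. The 2 arrays of a group are described as duplicate measurements. No source used here says that they hold separate animals, so each p-value measures only the spread between these arrays, which may be technical.

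P450 enzymes are haem proteins that insert 1 atom of oxygen into their substrates with electrons passed on by NADPH-cytochrome P450 oxidoreductase and, for some reactions, cytochrome b5. Families 1 to 3 act mainly on drugs, pollutants and steroids, family 4 hydroxylates fatty acids at the end of the chain, and the remaining families serve steroid, retinoid and vitamin D metabolism. In liver most of them are hepatocyte enzymes. Several concentrate around the central vein, several differ between the sexes under the pattern of growth hormone release, and the receptors AHR, CAR, PXR and PPARA switch subfamilies on.

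Signals are in the arbitrary linear units of the deposited table and no gene's level is set against another gene's. A sum over a marker list, taken over every gene of it on the array, adds unlike probe sets and leans on the brightest. Differences are given as log2 of PEPCK-TAg minus log2 of wild-type group means, ± the standard error of limma (n = 2 arrays per group), and folds are the same differences on a linear scale, thus of geometric means. Testing required a signal over 41.3 on 2 or more arrays, and values under a floor of 10.6 were raised to it. "Called" means an adjusted p under 0.05 in limma over all 7877 probe sets tested. Of the P450 set, 29 probe sets of 27 genes in 15 subfamilies passed this filter, 26 of them with all 4 arrays above it. Only Cyp3a16 passed through the PEPCK-TAg arrays alone, and 0 passed through the wild-type arrays alone. The other 13 probe sets had signals between 0.1 and 42.6, and 3 of them were at or under the floor on every array. They leave 9 genes without a tested probe set, which are Cyp11a1, Cyp1a1, Cyp1b1, Cyp24a1, Cyp27b1, Cyp2b19, Cyp2j5, Cyp2j6 and Cyp2s1, and add a second probe set of Cyp17a1.

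P450 expression was lower in PEPCK-TAg liver for part of the family. Limma called 10 of the 29 probe sets lower, from 9 genes, which is 34.5% against 3.4% of all probe sets tested. The called genes were Cyp1a2, Cyp2d10 (both probe sets), Cyp2d26, Cyp2e1, Cyp2f2, Cyp4a10, Cyp4a12b, Cyp4f13 (1 of its 2 probe sets) and Cyp4v3, and their falls ran from 1.90-fold to 26.0-fold. None was called higher (0 of 29, against 9.1% of all probe sets). At an unadjusted p under 0.05 limma gave 11 lower and 1 higher, a threshold at which the share of all probe sets is not given here. In 13 probe sets every PEPCK-TAg array lay below every wild-type array, against 26.5% of all probe sets, in 2 every one lay above, against 33.3%, and in 14 the groups overlapped. Separated groups with a difference of 2-fold or more were found in 9 probe sets below wild-type, against 5.87% of all probe sets, and in 2 above it, against 14.7%. The median difference over the 29 was -0.44, beside 0.051 over all probe sets tested, and the differences ranged from -4.70 to 1.91. The plot of signals by array shows where the groups separate and where they do not.

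The count of falls depends on the arrays behind it. Without PEPCK-TAg array 1 it was 5 and without PEPCK-TAg array 2 it was 6, with no filter on low signals it was 2, and a block for the fluidics station left 0 (unadjusted p under 0.05 in 11 lower and 1 higher). The share of all probe sets called lower shrank as well in these settings, from 3.4% to 0.81%, 0.588%, 0.29% and 0.0% in the same order. The unadjusted counts of 11 and 1 have no such share beside them, so they cannot be set against a background. PEPCK-TAg array 2 was washed on another station than the other 3 arrays. In the pair of arrays scanned on the same day, wild-type array 1 and PEPCK-TAg array 1, the 10 called probe sets differed by -4.69 to -0.77, and the median over the 29 was -0.58. The sign of those 10 values is fixed, since their groups do not overlap. The 2 PEPCK-TAg arrays came from 1 chip lot and each wild-type array from another, so lot and group cannot be told apart.

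**Figure D1:**
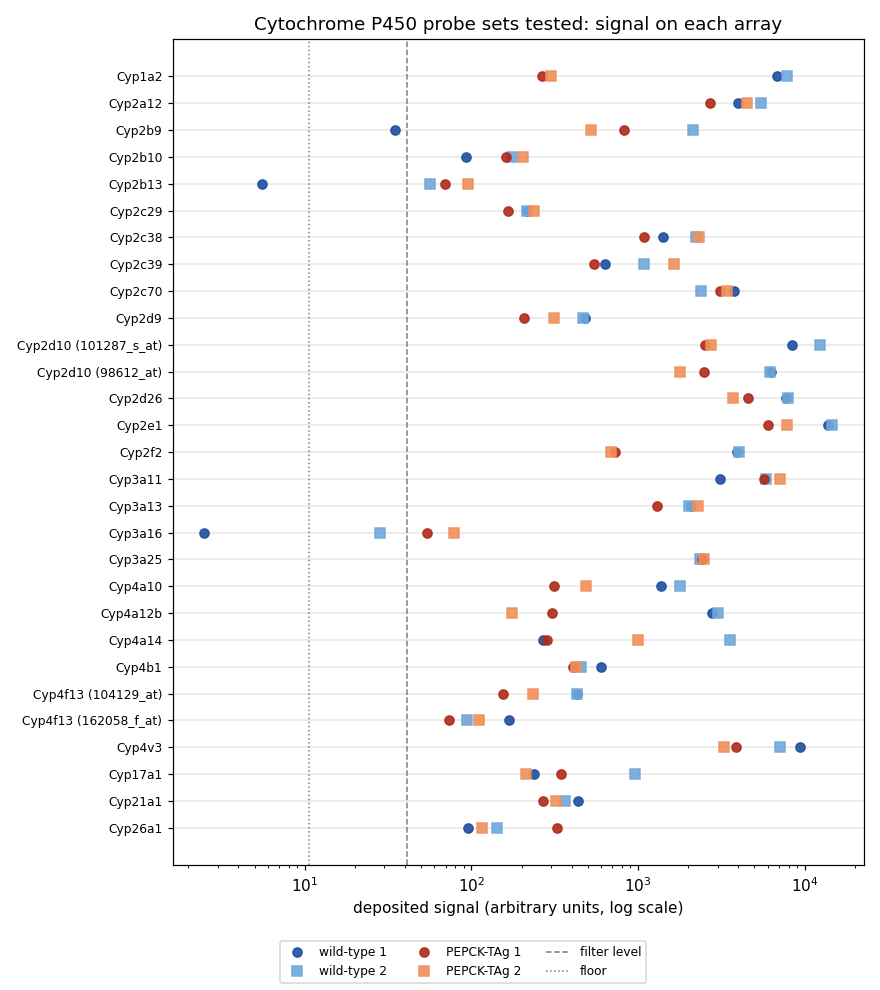
Deposited signal (arbitrary units, log axis) of each of the 29 P450 probe sets tested on the 4 arrays, with wild-type arrays in blue, PEPCK-TAg arrays in red and orange, the floor of 10.6 dotted and the filter of 41.3 dashed. The groups separate widely for Cyp1a2, Cyp4a12b and Cyp2f2, whereas wild-type array 1 stands far below the other 3 arrays for Cyp2b9, Cyp2b13 and Cyp3a16.

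The RNA came from whole liver, so fewer hepatocytes and less P450 RNA per hepatocyte cannot be told apart. Hepatocyte markers were present on every array, with summed signals of 109856 to 113381 in wild-type liver against 66054.8 to 80538.2 in PEPCK-TAg liver. Of their 14 genes tested, 3 were called lower and 0 higher, with a median difference of -0.51. Over all probe sets tested 3.4% were called lower and 9.1% higher, which is the background for every count in this paragraph. Myeloid markers summed to 1855.1 to 1910.9 in wild-type liver against 9969.9 to 14147.0 in PEPCK-TAg liver (11 of 16 called higher, 6 of them above the filter only in PEPCK-TAg liver), with Fcer1g and Itgam not above the filter. Erythroid markers summed to 3217.5 to 3303.7 and 10347.9 to 14456.8 (7 of 9 called higher, 2 of them above the filter only in PEPCK-TAg liver). Biliary markers summed to 116.2 to 118.8 and 334.0 to 661.1 (2 of 3 called higher, both tested only because they passed the filter in PEPCK-TAg liver), with Epcam, Krt19 and Krt7 not above the filter. Endothelial (1 of 10 called higher, above the filter only in PEPCK-TAg liver, 1536.7 to 2782.1 and 2068.5 to 2247.4) and stellate lists (1 of 6 called higher, 3145.3 to 3165.0 and 2470.8 to 2498.4) had 0 members called lower. Of 5 lymphocyte markers tested 2 were called higher, both above the filter only in PEPCK-TAg liver, and 1 lower, with Cd3d, Cd3e, Cd3g and Cd8a not above the filter. The 10 lymphocyte genes on the array summed to 786.7 to 973.7 and 299.3 to 339.0, and without Zap70, the gene called lower, to 222.4 to 250.2 and 241.3 to 295.4. The part of these other cells in the P450 differences was not tested.

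The largest fall of the set was in family 1. Cyp1a2, the hepatocyte enzyme that oxidises caffeine and aromatic amines and is a classical AHR target, had signals of 6852.9 and 7832.7 in wild-type liver against 265.9 and 298.4 in PEPCK-TAg liver. The arrays of each group lay close together and the groups were far apart. The fall was 26.0-fold (log2 difference -4.70 ± 0.22, adjusted p = 0.000449), with 0.19 between the wild-type arrays on the log2 scale, and it ranked 2 among all falls tested. The same-day pair gave -4.69. Its AHR-regulated relatives could not be followed. Both probe sets of Cyp1a1 (15.9 and 35.8 in wild-type liver against 15.7 and 21.2 in PEPCK-TAg for one, 26.3 and 26.7 and then 16.7 and 18.6 for the other) stayed under the filter, as did both of Cyp1b1. Ahr itself read 264.3 and 154.7 in wild-type liver against 200.3 and 199.3 in PEPCK-TAg liver (-0.019 ± 0.33, adjusted p = 0.979), and its sign turned when wild-type array 1 was left out (0.37). Of 4 AHR targets outside the P450 family, 1 was called higher, the quinone reductase Nqo1 (1.82 ± 0.38, adjusted p = 0.0274, and 2.16, adjusted p = 0.0308, for its 2 probe sets), and 0 were called lower. Both Nqo1 probe sets passed the filter only in PEPCK-TAg liver, so they could enter the test only as higher. Over all probe sets tested 9.1% were called higher and 3.4% lower.

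The next members of the drug-metabolising families also fell. Cyp2f2, which oxidises naphthalene in lung and liver, had signals of 3902.8 and 4050.2 in wild-type liver against 725.6 and 683.9 in PEPCK-TAg liver, a fall of 5.65-fold (-2.50 ± 0.21, adjusted p = 0.00154). Both groups were tight, with 0.052 between the wild-type arrays on the log2 scale. Cyp2e1, the ethanol- and acetone-inducible enzyme that activates paracetamol, read 13847.1 and 14614.9 in wild-type liver against 6057.5 and 7792.9 in PEPCK-TAg liver. Its fall of 2.07-fold (-1.05 ± 0.23, adjusted p = 0.0326) lost the call in 9 of 19 alternatives. Among them were leaving out either wild-type array or PEPCK-TAg array 1, and quantile normalization, which gave -0.50 (adjusted p = 0.0676). The 19, here and below, include the same-day pair, which has no p-value, and a looser adjusted p of 0.1. Neither of these could lose a call.

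The sequences just upstream of Cyp1a2 and Cyp2f2 are shown because these calls were lost under the fewest alternatives, 1 each. They are the 250 bases before the gene start in RefSeq (GRCm38.p6), written 5' to 3' in the direction of the gene. Cyp1a2 lies on the minus strand (chr9:57683656-57683905), and capitals mark a TATAAA match 29 bases before the start. Cyp2f2 lies on the plus strand (chr7:27119705-27119954), and capitals mark AGGTCA, the core of many nuclear receptor elements, 221 bases before the start.
Cyp1a2: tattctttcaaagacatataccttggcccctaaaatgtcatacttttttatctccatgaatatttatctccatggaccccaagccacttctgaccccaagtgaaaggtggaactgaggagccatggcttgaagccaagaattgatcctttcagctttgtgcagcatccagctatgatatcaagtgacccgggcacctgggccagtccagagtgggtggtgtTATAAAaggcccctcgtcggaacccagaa
Cyp2f2: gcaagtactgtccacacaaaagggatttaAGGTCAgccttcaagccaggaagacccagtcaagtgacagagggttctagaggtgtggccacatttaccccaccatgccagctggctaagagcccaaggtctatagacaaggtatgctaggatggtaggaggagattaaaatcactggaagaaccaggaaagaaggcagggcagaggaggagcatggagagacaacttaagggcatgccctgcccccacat
Both strands of such windows were searched for 5 motifs, none of which contains another, and 30 of the 36 genes had a window, among them 7 of the 9 called and 15 tested genes that were not called. TATAAA was present in 4 of the 7 called genes (Cyp1a2, Cyp2d10, Cyp2d26 and Cyp2e1), in 7 of the 15 others and in 12.4% of all 32851 windows. AGGTCA was present in 1 of 7, 7 of 15 and 14.0%. The AHR core GCGTG was present in 1 of 7 (Cyp4v3), 1 of 15 and 28.2%, and not in the Cyp1a2 window printed here. The STAT motif TTCNNNGAA was present in 1 of 7 (Cyp4f13), 1 of 15 and 7.02%, and the D-box TTATGNAA in 0 of 7, 1 of 15 and 3.07%. These are letter matches only.

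The Cyp2d subfamily, mouse relatives of the human debrisoquine hydroxylase, moved in 1 direction. All 4 of its probe sets were lower with no overlap between groups, against 26.5% of all probe sets. Limma called 3 of the 4 lower, against 3.4% of all probe sets, and the differences of the 4 lay between -1.96 and -0.90. Cyp2d10 had 2 probe sets, and the one marked as shared with related transcripts read 8438.7 and 12307.3 in wild-type liver against 2512.3 and 2740.1 in PEPCK-TAg liver (3.89-fold lower, -1.96 ± 0.26, adjusted p = 0.00578). The other read 6269.6 and 6163.7, and then 2499.0 and 1783.3 (2.95-fold lower, -1.56 ± 0.25, adjusted p = 0.0109), so both gave the same direction. Cyp2d26 read 7731.9 and 7931.1 in wild-type liver against 4551.4 and 3728.8 in PEPCK-TAg liver, a fall of 1.90-fold (-0.93 ± 0.22, adjusted p = 0.0421) that lost its call in 11 of 19 alternatives. Cyp2d9, a male-biased testosterone hydroxylase, lay just outside the threshold with 483.3 and 465.0 and then 206.5 and 313.7 (-0.90 ± 0.29, adjusted p = 0.0925). It is named, like Cyp4a14, Cyp2b10, Cyp3a25, Cyp3a13 and the smaller Cyp2c members below, after its values were seen.

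No single-gene probe set of the Cyp2c and Cyp3a subfamilies passed the test in either direction. Of all probe sets tested 3.4% were called lower and 9.1% higher, so 0 calls among so few probe sets is near the background. Probe sets shared by several genes are given apart, and 1 such Cyp2c probe set was called lower. The 4 single-gene Cyp2c probe sets tested differed by -0.17 to 0.19, with 0 called. The brightest, Cyp2c70, the enzyme that makes muricholic acids in mouse liver, read 3761.5 and 2371.9 in wild-type liver against 3086.2 and 3425.1 in PEPCK-TAg liver (0.12 ± 0.28, adjusted p = 0.807). Its 95% interval of -0.55 to 0.79 still admits changes of either sign, and without wild-type array 2 the value was -0.21. Cyp2c29, Cyp2c38 and Cyp2c39 gave -0.12, -0.17 and 0.19, all with overlapping groups. The Cyp2c38 probe set lists 1 gene but is marked as able to pick up relatives. Cyp2a12, a steroid and bile acid hydroxylase and the only Cyp2a gene with a probe set of its own here, read 3996.1 and 5456.8 in wild-type liver against 2685.5 and 4481.1 in PEPCK-TAg liver (-0.43 ± 0.32, adjusted p = 0.403).

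Cyp3a11, the main drug-oxidising Cyp3a enzyme of adult mouse liver and a PXR target, read 3094.9 and 5846.0 in wild-type liver against 5686.9 and 7091.8 in PEPCK-TAg liver. Wild-type array 2 lay between the PEPCK-TAg arrays, and the difference of 0.58 ± 0.34 did not pass (adjusted p = 0.299). Cyp3a25 was level on all 4 arrays at 2419.1, 2340.2, 2405.0 and 2492.4 (0.04 ± 0.21, 95% interval -0.46 to 0.54, adjusted p = 0.922). Cyp3a13 gave -0.24 ± 0.31 (adjusted p = 0.638). Cyp3a16, a form typical of fetal and female liver, read 2.5 and 28.1 in wild-type liver against 53.9 and 78.2 in PEPCK-TAg liver. The groups did not overlap and the difference was at least 3.76-fold (1.91 ± 0.58), but the adjusted p was 0.0811, and it passed the filter only because of the PEPCK-TAg arrays. It gave 1.21 (adjusted p = 0.119) without wild-type array 1 and 2.62 (adjusted p = 0.00785) without wild-type array 2.

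**Figure D2:**
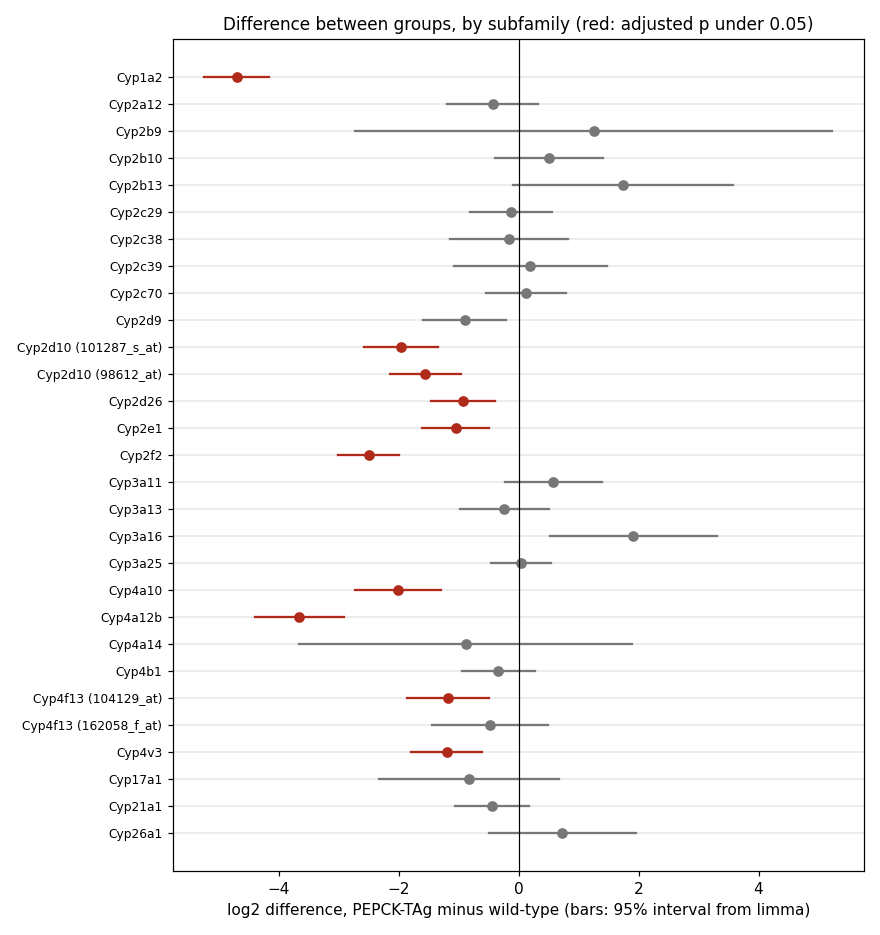
Log2 difference between the means of PEPCK-TAg and wild-type arrays (points) with limma's 95% interval (bars) for the 29 P450 probe sets tested, ordered by family and subfamily, with red marking an adjusted p under 0.05. Called falls lie in the Cyp1a, Cyp2d, Cyp2e, Cyp2f, Cyp4a, Cyp4f and Cyp4v subfamilies, the Cyp2c points lie between -0.17 and 0.19, and the interval of Cyp2b9 runs from -2.72 to 5.23.

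Family 4, the fatty acid hydroxylases, held 4 of the 9 genes called lower. By subfamily these were 2 of 3 tested genes in Cyp4a, 1 of 1 in Cyp4f, 1 of 1 in Cyp4v and 0 of 1 in Cyp4b. Of all probe sets tested 3.4% were called lower. Cyp4a12b, of the male-biased Cyp4a12 pair that makes the vasoactive lipid HETE from arachidonic acid, read 2790.1 and 3027.0 in wild-type liver against 303.7 and 175.7 in PEPCK-TAg liver. The fall was 12.6-fold (-3.65 ± 0.31, adjusted p = 0.0015), it ranked 7 among all falls tested, and the wild-type arrays differed by 0.12. Cyp4a10, a PPARA target, read 1381.4 and 1784.1 and then 311.6 and 487.8, a fall of 4.03-fold (-2.01 ± 0.30, adjusted p = 0.00883), on a probe set marked as able to pick up relatives. Its neighbour Cyp4a14, also a PPARA target, behaved differently within the groups. It read 269.3 and 3557.1 in wild-type liver against 283.8 and 993.6 in PEPCK-TAg liver, so the groups overlapped (-0.88 ± 1.16, adjusted p = 0.646). Without wild-type array 1 Cyp4a14 was called lower (-2.75, adjusted p = 0.000594), and without wild-type array 2 it gave 0.98 (adjusted p = 0.204).

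The other family 4 subfamilies had smaller differences. Cyp4v3, the mouse counterpart of the fatty acid hydroxylase altered in Bietti crystalline dystrophy, read 9421.2 and 7084.7 in wild-type liver against 3871.6 and 3265.3 in PEPCK-TAg liver (2.30-fold lower, -1.20 ± 0.25, adjusted p = 0.0257). Cyp4f13, of a subfamily that inactivates leukotrienes, read 430.0 and 430.9 and then 155.7 and 233.3 on its brighter probe set (2.26-fold lower, -1.18 ± 0.29, adjusted p = 0.0449). Its dimmer probe set, marked as able to pick up relatives, read 169.0 and 93.8 and then 72.9 and 111.6. The groups overlapped there (-0.48 ± 0.40, adjusted p = 0.463), so the 2 probe sets fell on opposite sides of the threshold. The calls of Cyp4v3 and of the brighter Cyp4f13 probe set were each lost in 7 of 19 alternatives. Cyp4b1, known mainly from lung, gave 599.4 and 456.5 and then 407.1 and 422.7 (-0.34 ± 0.25, adjusted p = 0.414), on a probe set marked as able to pick up relatives.

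P450 genes of steroid, retinoid and vitamin D metabolism gave 3 tested probe sets and 0 calls. With 3.4% of all probe sets called lower and 9.1% higher, 0 of 3 is near the background. Cyp17a1, of androgen synthesis, read 237.9 and 954.1 in wild-type liver against 343.6 and 211.6 in PEPCK-TAg liver (-0.82 ± 0.63, adjusted p = 0.421). Cyp21a1, of glucocorticoid and mineralocorticoid synthesis, read 435.1 and 362.1 and then 267.4 and 321.3, with no overlap (-0.44 ± 0.26, adjusted p = 0.297). Its probe set is marked as shared with related transcripts. Cyp26a1, which breaks down retinoic acid, read 95.2 and 142.6 and then 324.4 and 115.4 (0.73 ± 0.51, adjusted p = 0.381). PEPCK-TAg array 1 alone was high for Cyp26a1, and without it the difference was -0.015.

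The wild-type arrays lay close together for some P450 probe sets and far apart for others, from 0.002 to 5.94 on the log2 scale. Among the 10 called probe sets they differed by 0.002 to 0.54 on the log2 scale, and 7 of the 19 others lay in the same range. A small spread itself favours a call. Over all 29 the median wild-type spread was 0.41, beside 0.35 over all probe sets tested, and the median PEPCK-TAg spread was 0.50, beside 0.31. The group difference exceeded the wild-type spread in 16 of 29, beside 4677 of all 7877 probe sets tested. It exceeded the spreads of both groups in 13 of 29, beside 48% of all probe sets. Neither share was above that of all probe sets. The wild-type arrays were 2-fold or more apart in 5 of the 29 probe sets, against 10.6% of all probe sets, and the PEPCK-TAg arrays in 4, against 6.2%. In all 5 the higher array was wild-type array 2, which was the higher one in 381 of the 837 probe sets of the array that were 2-fold or more apart.

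**Figure D3:**
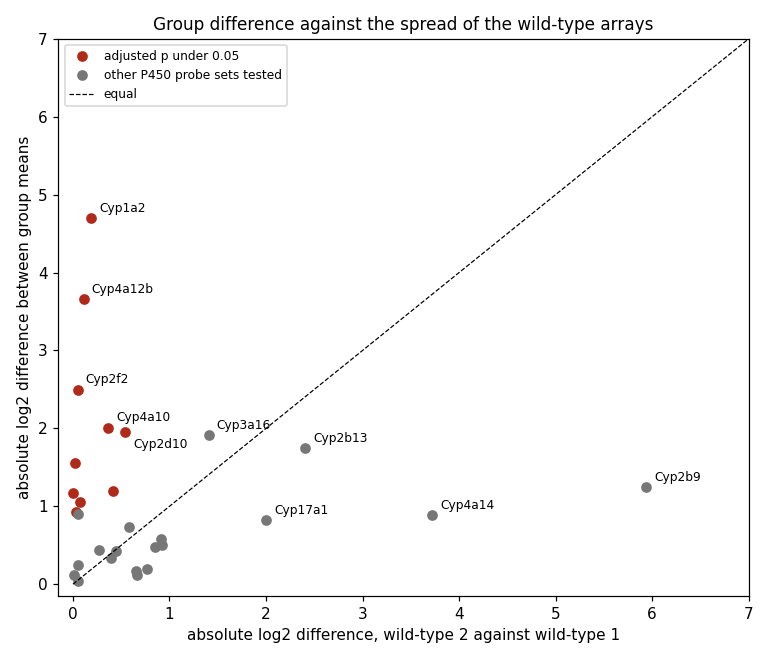
Absolute log2 difference between group means (vertical axis) against the absolute log2 difference between the wild-type arrays (horizontal axis) for the 29 P450 probe sets tested, with the dashed line where they are equal and red marking an adjusted p under 0.05. The 10 called probe sets and 7 of the 19 others stay within 0.54 on the horizontal axis, and Cyp2b9, at 5.94, had the widest wild-type spread of all 7877 probe sets tested.

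Those 5 genes were Cyp2b9, Cyp4a14, Cyp2b13, Cyp17a1 and Cyp3a16. Cyp2b9, a female-biased steroid hydroxylase, read 34.9 on wild-type array 1 and 2146.8 on wild-type array 2, which are 61.5-fold apart, the widest wild-type gap among the 7877 probe sets tested. The PEPCK-TAg arrays, at 819.3 and 519.6, lay between them (1.25 ± 1.66, adjusted p = 0.65). Leaving out 1 wild-type array called Cyp2b9 in opposite directions, as -1.72 (adjusted p = 0.00122) without array 1 and 4.22 (adjusted p = 1.68e-07) without array 2. Cyp4a14 was 13.2-fold apart in wild-type, rank 3 of all probe sets tested. Cyp2b13, another female-biased form, read 5.5 and 56.2 in wild-type liver against 69.6 and 95.8 in PEPCK-TAg liver. Its groups did not overlap, and their geometric means differed by at least 3.34-fold with wild-type array 1 at the floor (1.74 ± 0.77, adjusted p = 0.183). Without wild-type array 1 Cyp2b13 gave 0.54 (adjusted p = 0.455), and without wild-type array 2 it was called higher (2.95, adjusted p = 0.00181). Without wild-type array 1 Cyp17a1 was called lower (-1.82, adjusted p = 0.00102). Cyp2b10, the CAR target of the subfamily, gave 92.2 and 174.8 and then 160.4 and 202.6 (0.50 ± 0.38, adjusted p = 0.412).

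Cyp2b9 and Cyp2b13 differed most between the wild-type arrays within their subfamily, and their upstream windows are printed because they are near copies. In RefSeq (GRCm38.p6) Cyp2b9 lies at chr7:26173159-26173408 and Cyp2b13 at chr7:26061245-26061494, both on the plus strand, with capitals marking AGGTCA 138 bases before the start in each.
Cyp2b9: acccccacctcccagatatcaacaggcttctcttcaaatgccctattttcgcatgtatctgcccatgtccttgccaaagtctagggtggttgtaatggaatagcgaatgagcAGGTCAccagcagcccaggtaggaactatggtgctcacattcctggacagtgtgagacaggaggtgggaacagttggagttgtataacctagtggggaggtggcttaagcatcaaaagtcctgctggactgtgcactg
Cyp2b13: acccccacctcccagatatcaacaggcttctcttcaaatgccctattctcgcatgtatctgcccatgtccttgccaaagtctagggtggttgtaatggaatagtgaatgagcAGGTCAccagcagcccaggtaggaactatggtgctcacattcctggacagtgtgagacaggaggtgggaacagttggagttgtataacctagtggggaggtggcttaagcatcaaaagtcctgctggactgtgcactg
The windows share 248 of 250 bases (99.2%). Counted from 1 at the 5' end of the window, with the Cyp2b9 base first, the differences are T48C and C104T. Cyp2b10 shares 70.0% with Cyp2b9 over the same window, and Cyp2d10 shares 82.3% with Cyp2d9 and 50.2% with Cyp2d26. Probe sets of close relatives can pick up one another's RNA. The windows lie before the gene start, and no transcript or probe sequences were compared. Whether the Cyp2b9 and Cyp2b13 probe sets do so was therefore not tested.

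Genes listed as female-biased P450 forms shared the shift between the wild-type arrays. All 7 tested (Cyp2b9, Cyp2b10, Cyp2b13, Cyp3a16, Cyp4a10, Cyp4a14 and Cyp17a1) read higher on wild-type array 2 than on array 1. So did 20 of all 29 P450 probe sets, these 7 included, and 47.2% of all probe sets, so the direction by itself also occurred outside the list. In 5 of the 7 the gap was 2-fold or more, where 4.84% of all probe sets had this, and they are the same 5 genes named above. Their summed signals were 2023.7 and 8701.2 in wild-type liver against 2042.2 and 2589.2 in PEPCK-TAg liver. Between groups 1 of the 7 was called lower (Cyp4a10) and 0 higher, against 3.4% and 9.1% of all probe sets, with a median of 0.50. The 2 male-biased genes tested, Cyp4a12b and Cyp2d9, differed by 0.12 and 0.057 between the wild-type arrays. Xist, the RNA of the inactive X chromosome in females, was under the filter on all 4 arrays (16.7 and 3.7 in wild-type, 8.3 and 12.3 in PEPCK-TAg). Of the Y-linked genes, Eif2s3y read 293.8 and 227.5 in wild-type liver against 404.0 and 405.0 in PEPCK-TAg liver, on a probe set that can pick up relatives. Uty read 52.4 and 70.9 against 50.7 and 36.2, and Kdm5d was under the filter on all 4 arrays. Wild-type array 2 was also scanned on another scanner type and another day than wild-type array 1, and the part of either in this spread was not tested.

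**Figure D4:**
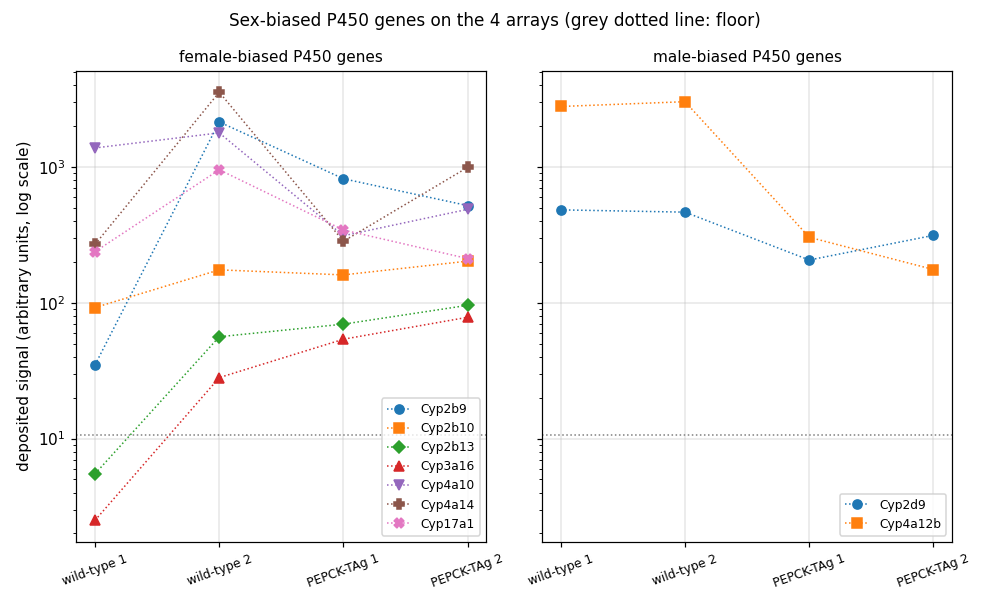
Deposited signals (arbitrary units, log axis) of the 7 female-biased (left) and 2 male-biased (right) P450 genes on each array, with 1 marker per gene, thin lines that only join values of 1 gene, and the floor of 10.6 dotted. All 7 female-biased genes are higher on wild-type array 2 than on wild-type array 1, and Cyp4a12b falls from 2790.1 and 3027.0 in wild-type to 303.7 and 175.7 in PEPCK-TAg liver.

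Neighbouring P450 genes did not share 1 response in every cluster. In the RefSeq gene order, the Cyp2a, Cyp2b, Cyp2f and Cyp2s genes form a cluster of 13 P450 genes. Its 5 tested genes ran from -2.50 (Cyp2f2) to 1.74 (Cyp2b13), with 1 called lower. Over all probe sets tested 3.4% were called lower and 9.1% higher, which is the background for every count in this paragraph. The Cyp2d cluster had 2 of 3 tested genes called, the Cyp4a and Cyp4b cluster 2 of 4, the Cyp2c cluster 0 of 4 and the Cyp3a cluster 0 of 3. Position along the liver lobule gave no single picture either. Of 5 pericentral P450 genes tested, 2 were called lower (Cyp1a2 and Cyp2e1), with a median of -0.17. Outside the family, 3 of 13 pericentral genes were called lower and 0 higher (median -0.56), with Oat at -3.11, Lect2 at -2.29 and Rgn at -2.09. Dimmer probe sets outside this count were called higher for Gstm3 (1.96, adjusted p = 0.00534) and lower for Glul (-2.40, adjusted p = 0.0152). Periportal genes gave 3 of 12 lower and 0 higher (median -0.79), with Sult5a1 at -2.92, Hal at -2.09 and Tat at -1.24, and Sult5a1 passed the filter only in wild-type liver. Asl is not among the 3 and gave -2.05 (adjusted p = 0.0112) on one probe set and -1.07 (adjusted p = 0.108) on the brighter one.

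Among genes listed as electron donors or other partners of P450 enzymes, Pgrmc1 and Pgrmc2 included, 2 of 7 tested were called lower and 0 higher. These counts use the brightest probe sets (median -0.56), and of all probe sets 3.4% were called lower and 9.1% higher. The oxidoreductase Por was not analysed here. Cyb5b, the mitochondrial outer membrane cytochrome b5, read 2769.2 and 2968.5 in wild-type liver against 1132.6 and 1049.8 in PEPCK-TAg liver (-1.40 ± 0.21, adjusted p = 0.00978), and its dimmer probe set gave -0.73 (adjusted p = 0.183). Cyb5r3, the cytochrome b5 reductase, read 4527.6 and 3606.9 and then 2033.2 and 2048.9 (-0.99 ± 0.23, adjusted p = 0.0375). Cyb5a, the microsomal cytochrome b5, read 6251.3 and 5303.7 and then 3370.4 and 3015.3, just outside the threshold (-0.85 ± 0.22, adjusted p = 0.0534). Cyb5r1 was called higher on its dimmer probe set (1.91, adjusted p = 0.0176) and not on its brighter one (0.42, adjusted p = 0.348). Of 10 genes of haem supply and breakdown, 1 was called higher and 0 lower (median 0.12), a share of 10% higher that is near the 9.1% of all probe sets. That was Alad, the second enzyme of haem synthesis, at 1445.1 and 1217.4 in wild-type liver against 2512.6 and 2847.0 in PEPCK-TAg liver (1.01 ± 0.23, adjusted p = 0.0346). Alas1, the first and rate-limiting enzyme of hepatic haem synthesis, read 5703.2 and 5184.6 and then 2982.8 and 3819.9 (-0.69 ± 0.23, adjusted p = 0.105).

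Transcription factors known to act on P450 genes gave 1 gene called lower and 0 higher of 25 tested (median -0.25), a share of 4% lower that is near the 3.4% of all probe sets. That gene was Nr1i3, which encodes the xenobiotic receptor CAR, at 484.7 and 465.0 in wild-type liver against 117.3 and 223.5 in PEPCK-TAg liver on its brightest probe set (-1.55 ± 0.35, adjusted p = 0.0355). Its other probe sets gave -1.37 (adjusted p = 0.110) and -1.32 (adjusted p = 0.0766). Nr1i2, which encodes PXR, gave -0.22 ± 0.31 (adjusted p = 0.665), and Hnf4a, a hepatocyte factor, -0.36 ± 0.37 (adjusted p = 0.550). Ppara gave -0.29 ± 0.49 (adjusted p = 0.730), and its sign turned without wild-type array 1 (0.36) or PEPCK-TAg array 2 (0.14). Of 13 PPARA targets outside the P450 family, against 3.4% of all probe sets called lower and 9.1% higher, 3 were called lower and 0 higher (median -0.56). They were Cpt2 of mitochondrial fatty acid import (-1.59 ± 0.24, adjusted p = 0.00883), Ehhadh of peroxisomal oxidation (-1.07 ± 0.25, adjusted p = 0.0405) and Acaa1b, the peroxisomal thiolase (-1.07, adjusted p = 0.0234, and -1.57, adjusted p = 0.0343, on its 2 probe sets).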

How the data were processed

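Total liver RNA was measured on 4 arrays, 2 per group, grouped by the labels' titles. For each array the authors deposited a linear intensity per probe set. The submitters' processing notes name MAS5, with a version not given in the sources used here. Arrays were scaled to equal 2% trimmed means (a change of at most 0.102%), raised to a floor of 10.6 (percentile 20 over all arrays) and put on the log2 scale. Probe sets above 41.3 (percentile 40) on at least 2 arrays, 7877 in all, were compared with limma 3.58.1 under R 4.3.3. The fit used lmFit, then eBayes with a trend on intensity, with two-sided p-values, no block, Benjamini-Hochberg adjustment and 6.60 degrees of freedom. With 2 arrays against 2 an exact permutation test reaches p = 0.333 at best. A fold is a lower bound where the lower group has an array at the floor. Only 4 arrays limit the precision. The limma step was tested on simulated data.

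The P450 set, the gene lists and the alternatives were chosen with earlier results of these data known. Named were every P450 probe set that was called, or that differed by 2-fold or more without overlap, and the brightest of each subfamily. Named outside the family were Cyb5a, Alas1, Ahr, Nr1i2, Nr1i3, Ppara, Hnf4a and up to 3 called genes per list. The rule also names Por, for which no value is given. Other names were chosen after their values were seen. List counts use each gene's brightest probe set. Promoter windows and gene order are from RefSeq (GRCm38.p6), with genes put in 1 cluster when no more than 10 genes apart. Alternatives changed the scaling, floor, filter, arrays, block, eBayes setting, threshold and choice of probe sets, and scanner type as a block was added after seeing the data.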

Additional observations from a re-analysis of the deposited data

How the results depend on the processing

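The number of P450 probe sets called lower, 10 as reported, fell to 2 with no filter on low signals, 6 with eBayes without a trend and 0 once the fluidics station was a block. Leaving out 1 array gave 5 to 10. The set called without wild-type array 1 was not the reported set. Cyp2e1, Cyp2d26 and Cyp4v3 lost their calls there. Cyp4a14 (-2.75), Cyp2b9 (-1.72) and Cyp17a1 (-1.82), whose groups overlap with all arrays in use, were called lower in their place. The other alternatives, among them quantile normalization (7) and floors at the 10th (10) and 40th percentile (7), stayed within 1.5 times of the reported count. The number called higher, 0 as reported, was 2 with the replicate block, 3 with scanner type as a block and 1 at an adjusted p of 0.1, and leaving out 1 array gave 0 to 3. The median difference of the P450 probe sets stayed between -0.75 and -0.24 under all alternatives, and under quantile normalization the median of all probe sets moved from 0.051 to -0.088. Deviations of arrays with the same replicate number correlated at 0.253 over the 7877 probe sets, and with only 2 pairs the numbers were not taken as a pairing. The replicate block gave 11 called lower, with all 10 reported calls kept, while the share of all probe sets called lower rose from 3.4% to 8.04%. For the counts called higher, the shares of all probe sets under the alternatives are not given here.

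No called P450 difference changed its sign, which was fixed in advance for most alternatives. The groups of these probe sets do not overlap, so neither leaving out an array nor a block could turn it. The filter, threshold and eBayes settings leave the difference as it is. Among the other named genes, leaving out 1 array turned some signs, with values from -1.72 to 4.22 for Cyp2b9, -1.82 to 0.18 for Cyp17a1, -0.21 to 0.45 for Cyp2c70, -0.015 to 1.48 for Cyp26a1, -2.75 to 0.98 for Cyp4a14, -0.37 to 0.13 for Cyp2c29, -0.72 to 0.38 for Cyp2c38, -0.60 to 0.99 for Cyp2c39, -0.65 to 0.17 for Cyp3a13, -0.41 to 0.37 for Ahr and -0.94 to 0.36 for Ppara. With scanner type as a block Cyp17a1 gave 0.18 and Cyp2c70 -0.21, and with the station block Ppara gave 0.14. The station block by its construction rests on PEPCK-TAg array 1 alone for its group. The scanner block in the same way rests on wild-type array 1 alone, so its differences equal those without wild-type array 2. The cause of the other changes was not tested. Chip lot as a random block could not be estimated. When an array is left out, the lone array of its group is assumed to vary like the other group. Signal over background limits what can be said of the 13 probe sets under the filter.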

Other observations

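A further 7 probe sets list several P450 symbols each and were left out of the set, because no single gene can be named from them. All 7 were tested, 3 were called lower and 0 higher, against 3.4% and 9.1% of all probe sets. A Cyp2c probe set of 2 genes read 4008.9 and 4543.8 in wild-type liver against 723.1 and 1023.2 in PEPCK-TAg liver (-2.31 ± 0.26, adjusted p = 0.00323). This fall lies outside the range of -0.17 to 0.19 of the 4 single-gene Cyp2c probe sets. A second Cyp2c probe set, shared by 4 genes, read 5161.9 and 5239.5 and then 2898.0 and 3056.9 (-0.81 ± 0.21, adjusted p = 0.0531). The shared Cyp2a probe set read 6922.7 and 6538.9 and then 894.5 and 2892.4 (-2.07 ± 0.51, adjusted p = 0.0461), and the PEPCK-TAg arrays differed widely there. The shared Cyp2d probe set, at 8394.3 and 7951.3 and then 2509.2 and 2647.2, was lower like the single-gene ones (-1.67 ± 0.21, adjusted p = 0.00504).

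The shared Cyp3a probe set read 2366.2 and 5728.1 in wild-type liver against 6592.8 and 7483.9 in PEPCK-TAg liver (0.93 ± 0.41, adjusted p = 0.183), with wild-type array 2 again above array 1. The shared Cyp4a probe set showed the same order in wild-type, at 144.9 and 535.9 against 49.8 and 116.1 (-1.88 ± 0.67, adjusted p = 0.120). The shared Cyp4b probe set read 147.8 and 67.1 and then 91.1 and 79.2 (-0.23 ± 0.43, adjusted p = 0.753).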
